A study of Mus musculus with 15 samples.

Results

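The 10 genes described here encode proteins of the Bcl2 family that decide whether the mitochondrial outer membrane stays closed or opens during apoptosis. They were taken as a list by name, Bcl2, Bcl2l1, Mcl1, Bcl2l11, Bax, Bak1, Bbc3, Pmaip1, Bid and Bmf, and all 10 were found among the 36528 gene identifiers listed. All 10 passed the filter on low counts, which kept 17282 genes. They were measured in 15 libraries of polyadenylated RNA from laser-captured nests of mouse basal cell carcinoma. The groups were 5 libraries from residual nests after 28 days of vismodegib, an inhibitor of the Hedgehog transducer Smoothened, 5 from untreated nests labelled Ki67-negative and 5 from untreated nests labelled Ki67-positive, Ki67 being an antigen of proliferating cells.

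All 3 groups carried K14Cre-ER, floxed Ptch1 (Ptch1fl/fl), floxed p53 (p53fl/fl) and Lgr5GFP, so p53, an inducer of several of these genes, was targeted in treated and untreated nests alike. Cre under the keratin 14 promoter acts in basal keratinocytes, and the stroma and immune cells of a nest keep both genes. Which animal gave which nest is not in the labels. If libraries of a group share animals, p-values here come out too small, and they measure only the spread between these libraries, some of which may be technical. The Ki67-negative libraries hold a separate, later run of sample numbers in the deposit, while the other groups are interleaved. If they were prepared apart, which the labels do not say, that cannot be told apart from the group. Vismodegib nests carry no Ki67 label. Mki67, which encodes Ki67, averaged 683 ± 142 CPM (counts scaled to the library total) after vismodegib, 361 ± 74.5 CPM in Ki67-negative and 776 ± 228 CPM in Ki67-positive nests (SD, n = 5 each).

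Libraries held 6413055 to 10328822 counts after vismodegib, 4887381 to 7158143 in Ki67-negative and 4929869 to 8359195 in Ki67-positive nests. The 10 genes together summed to 490 to 656 CPM, 585 to 797 CPM and 579 to 735 CPM in the same order of groups. The epithelial markers Krt14 and Krt5 were at least 573 and 1786 CPM in every library. Libraries with Xist above the Y-linked Ddx3y numbered 3 after vismodegib (libraries 1, 2 and 3), 1 in Ki67-negative (library 5) and 1 in Ki67-positive nests (library 5). Ki67-negative library 5 also had the fewest genes with a count, 19669, against 21653 to 23322 in the others. On the second principal component it lay at 111.6, with the other 14 libraries between −25.2 and 7.71. It held the highest Bcl2 and Bak1 levels of its group and the lowest Bbc3, Bcl2l1, Bax and Pmaip1 levels. Leaving it out ended no call among the 10 genes. Libraries with Xist were spread unevenly between treated and untreated groups, so differences that go with Xist are partly mixed with treatment. Calls are given below with and without the libraries that have Xist.

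The family falls into 3 classes by role. Bcl2, Bcl-xL (from Bcl2l1) and Mcl1 bind and restrain the death proteins. Bax and Bak (from Bak1) form the pore that releases cytochrome c. The BH3-only proteins Bim (from Bcl2l11), Puma (from Bbc3), Noxa (from Pmaip1), Bid and Bmf carry stress and growth factor signals, occupying the survival proteins or activating the pore formers. In skin, Bcl2 is known from basal and hair follicle keratinocytes and is a usual marker of human basal cell carcinoma.

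Residual nests had less Bcl2, Bbc3 and Bid RNA than untreated nests of either kind, and less Bcl2l11 RNA than Ki67-positive nests. Against Ki67-negative nests, 3 of the 10 genes fell and 0 rose, where 31.9% of all genes tested were called in either direction and 16.5% were called lower. Against Ki67-positive nests, 4 of the 10 fell and 0 rose, beside 26.0% called in either direction and 13.4% called lower. A call is an adjusted p under 0.05 in edgeR's quasi-likelihood test with Benjamini-Hochberg adjustment over all genes tested. The genes that fell include the survival gene Bcl2 and BH3-only genes, while Mcl1, Bcl2l1, Bax, Bak1, Pmaip1 and Bmf did not pass the test in any comparison. Both comparisons use the same 5 vismodegib libraries and so are not independent. The median log2 fold change of the 10 genes was −0.13 against Ki67-negative and −0.50 against Ki67-positive nests, beside −0.03 and −0.02 over all genes tested. In bulk nests, fewer cells of a type and less RNA per cell cannot be told apart.

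**Figure D1:**
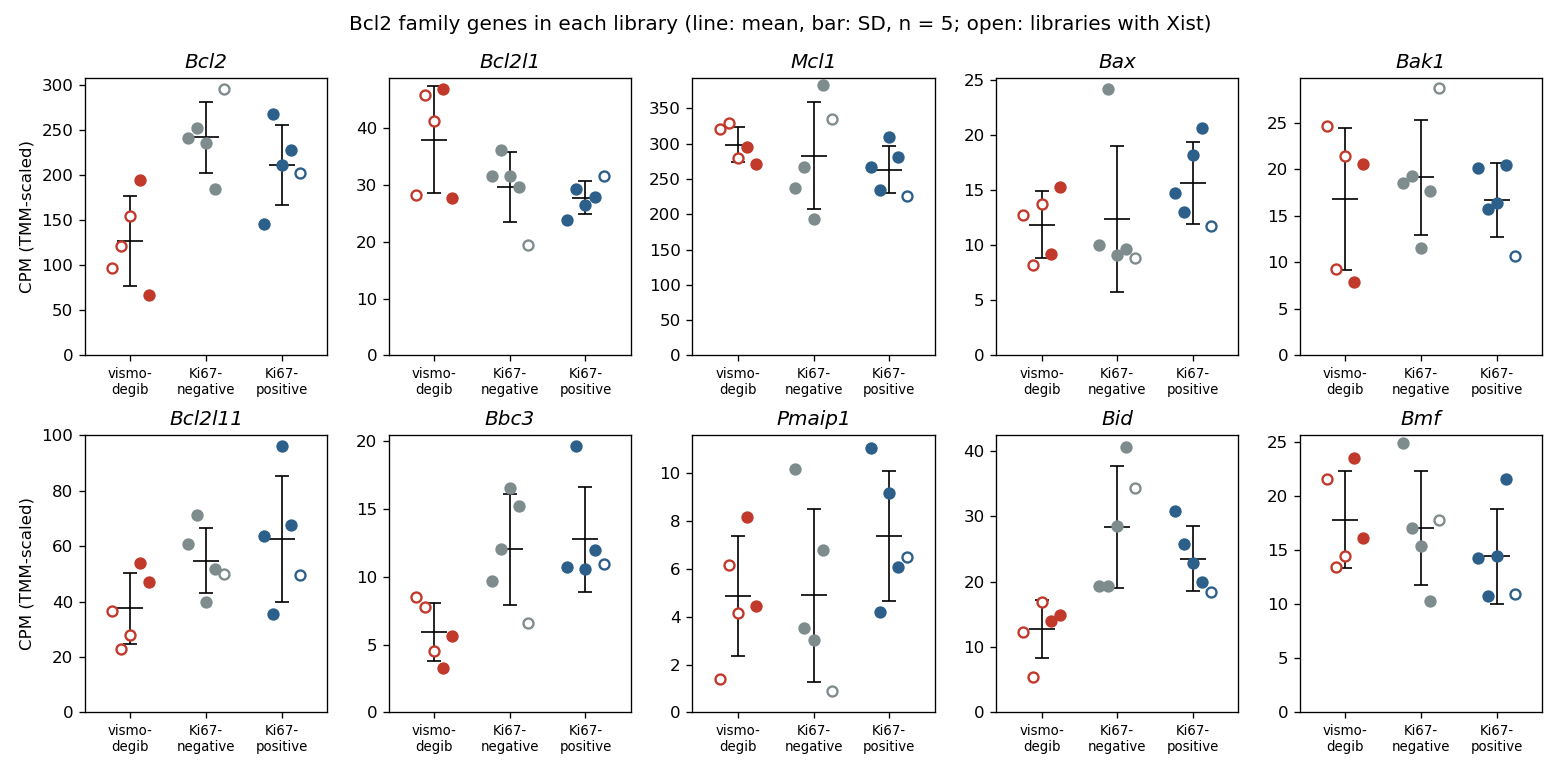
Level of each of the 10 genes in every library, in CPM scaled by TMM (trimmed mean of M values), with vismodegib left of the untreated groups. Points are libraries, horizontal marks are means, bars are SD (n = 5 each) and open points are libraries with Xist above Ddx3y. All 5 vismodegib libraries lie below all 10 untreated libraries for Bid, while every group overlaps for Mcl1.

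Bcl2, the founding survival gene of the family, lies on mouse chromosome 1 from 106538176 to 106714290 on the minus strand (RefSeq, build GRCm38.p6), and overlaps Gm37053, a long noncoding RNA gene not analysed here. It had 96.5, 122, 155, 194 and 67.4 CPM in vismodegib libraries 1 to 5. It had 241, 252, 236, 185 and 296 CPM in Ki67-negative and 146, 268, 212, 228 and 202 CPM in Ki67-positive libraries. Vismodegib library 4 reached the untreated range, and the others lay below all untreated libraries except Ki67-positive library 1, which was lower than vismodegib library 3. The fall was 0.525-fold against Ki67-negative nests (−0.93 on the log2 scale, SE 0.23, edgeR adjusted p = 0.00493) and 0.601-fold against Ki67-positive nests (−0.73, SE 0.23, adjusted p = 0.0239). The call against Ki67-negative nests held in all 15 fits that each leave out 1 library. The call against Ki67-positive nests did not hold without vismodegib library 1 (adjusted p = 0.0665) or 5 (0.0544) or Ki67-positive library 2 (0.0702) or 4 (0.051). Among libraries without Xist, 2 of them treated, neither was called, at −0.80 (adjusted p = 0.148) and −0.70 (0.206).

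The promoter of Bcl2 is shown because human Bcl2 is a reported target of Gli proteins, the transcription factors of the Hedgehog pathway. Capitals mark the GC box GGGGCGGGG on either strand, a binding sequence of Sp-family factors; the 250 bases end just before the RefSeq start, at chr1:106714291-106714540, read on the minus strand.
Bcl2 promoter: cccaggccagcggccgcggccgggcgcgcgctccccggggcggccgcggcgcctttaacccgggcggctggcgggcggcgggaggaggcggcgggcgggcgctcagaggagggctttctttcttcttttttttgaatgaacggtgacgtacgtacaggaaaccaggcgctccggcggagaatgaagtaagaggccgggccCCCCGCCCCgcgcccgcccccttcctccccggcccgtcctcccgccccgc
The Gli consensus GACCACCCA, searched on both strands, was in none of the 16 promoter windows of the 9 genes with one (250 bases before to 50 after a start). It was in 0.289% of 27025 genes with a window, so its absence from a window of 300 bases is the usual case.

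Bcl2l1 and Mcl1, the other survival genes, did not pass the test. Bcl2l1 averaged 37.9 ± 9.38 CPM after vismodegib, 29.7 ± 6.19 CPM in Ki67-negative and 27.8 ± 2.93 CPM in Ki67-positive nests (SD, n = 5 each). Vismodegib libraries 2, 3 and 4, at 45.7, 41.2 and 46.9 CPM, stood above every untreated library, while libraries 1 and 5, at 28.2 and 27.6 CPM, lay inside the untreated ranges. The log2 fold change was 0.36 against Ki67-negative (95% interval −0.05 to 0.76, adjusted p = 0.172) and 0.45 against Ki67-positive nests (0.04 to 0.86, adjusted p = 0.0952). Bcl2l1 overlaps Gm32211, at 3.74 CPM after vismodegib, 3.76 CPM in Ki67-negative and 4.26 CPM in Ki67-positive nests, and Cox4i2, at 0.79, 0.901 and 1.38 CPM in the same order. Mcl1, a short-lived protein whose RNA is made at a high rate, ranged from 271 to 329 CPM after vismodegib, from 194 to 383 CPM in Ki67-negative and from 226 to 309 CPM in Ki67-positive libraries. All 5 vismodegib values of Mcl1 fell inside the Ki67-negative range. Its log2 fold changes were 0.08 (95% interval −0.25 to 0.41) and 0.18 (−0.15 to 0.51), and neither interval holds the fitted change of Bcl2 in its comparison.

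On the deposited RPKM scale (read counts divided by gene length and library size, then by a size factor), which allows levels to be set between genes, Mcl1 led the family in every library. It averaged 21.2 ± 1.77 RPKM after vismodegib, 20.4 ± 5.36 RPKM in Ki67-negative and 18.8 ± 2.26 RPKM in Ki67-positive nests. Bcl2 came next, at 4.49 ± 1.80, 8.70 ± 1.5 and 7.54 ± 1.61 RPKM in the same order of groups, and the ranges of Mcl1 and Bcl2 did not overlap in any group. Bax followed in each group, at 3.73 ± 0.93 RPKM after vismodegib, and was below Bcl2 in 3 of 5 vismodegib libraries but in 5 of 5 libraries of each untreated group. Bak1, Bcl2l1, Bcl2l11 and Bid filled the middle ranks, where the ranges of neighbours overlapped, while those of Bid and Bcl2l1 did not overlap in either untreated group, Bid being the higher. Bmf, Pmaip1 and Bbc3 were lowest, with Bbc3 last after vismodegib at 0.346 ± 0.124 RPKM. RPKM divides by the whole gene model, so a gene with long unused exons reads low on this scale.

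**Figure D2:**
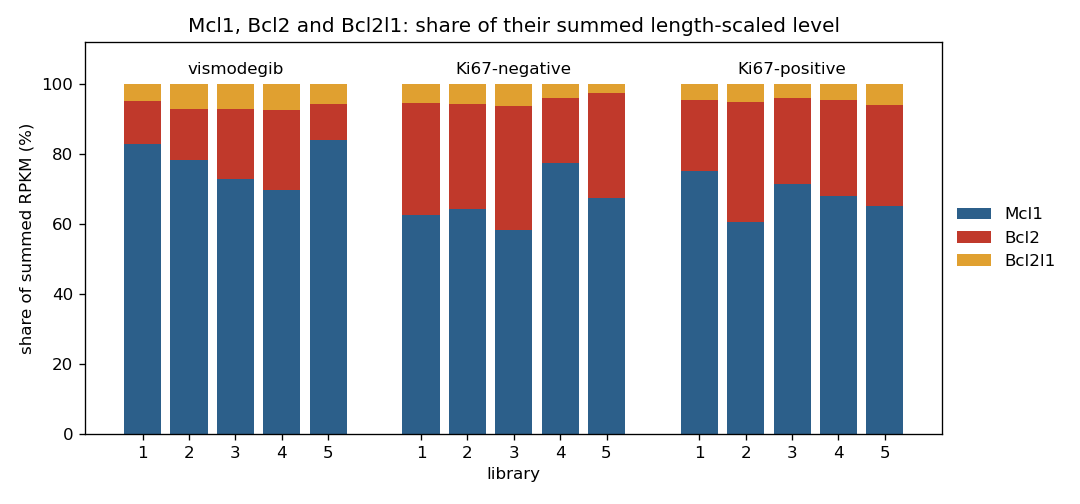
Share of Mcl1 (bottom), Bcl2 (middle) and Bcl2l1 (top) in their summed RPKM in each library, in percent. The Bcl2 share is 10.4 to 22.9% in the vismodegib libraries, 18.6 to 35.4% in Ki67-negative and 20.5 to 34.5% in Ki67-positive libraries.

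Among the survival genes, Bcl2 made up 16.1 ± 5.27% of the summed RPKM of Bcl2, Bcl2l1 and Mcl1 after vismodegib, 29.2 ± 6.29% in Ki67-negative and 27.2 ± 5.23% in Ki67-positive nests (SD, n = 5 each). Mcl1 made up 77.6 ± 6.15%, 66.1 ± 7.17% and 68.1 ± 5.64% in the same order of groups, and Bcl2l1 6.33 ± 1.11%, 4.75 ± 1.49% and 4.71 ± 0.75%. The ranges of the groups overlap for each of these shares. The shares are a description with no test, and vismodegib libraries 3 and 4 were the treated libraries with the most Bcl2.

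The pore formers were not called in any comparison. Bax, which moves to mitochondria on activation, ranged from 8.22 to 15.3 CPM after vismodegib, from 8.83 to 24.2 CPM in Ki67-negative and from 11.7 to 20.7 CPM in Ki67-positive libraries. Its log2 fold change was −0.06 against Ki67-negative (95% interval −0.69 to 0.56) and −0.40 against Ki67-positive nests (−1.03 to 0.22, adjusted p = 0.345). Bak1, which resides at mitochondria, ranged from 7.90 to 24.7 CPM after vismodegib, from 11.5 to 28.7 CPM in Ki67-negative and from 10.7 to 20.5 CPM in Ki67-positive libraries. Its log2 fold changes were −0.19 (95% interval −0.85 to 0.46) and 0.01 (−0.65 to 0.66). These intervals are wide, and the data do not show that the pore formers stayed level. Bak1 overlaps Ggnbp1 in the annotation, a gene that averaged 1.96 CPM after vismodegib, 4.56 CPM in Ki67-negative and 5.49 CPM in Ki67-positive nests, and whether strand was used in counting is not given in the sources used here, so reads of the pair cannot be told apart.

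Bid links death receptors to mitochondria, since caspase 8 cleaves it to its active form, and lies on chromosome 6 from 120893119 to 120917062. It had 12.3, 5.38, 16.9, 14.0 and 14.9 CPM in vismodegib libraries 1 to 5. It had 19.4, 19.3, 28.5, 40.6 and 34.3 CPM in Ki67-negative and 30.9, 25.7, 22.8, 19.9 and 18.4 CPM in Ki67-positive libraries. Every vismodegib library was below every untreated one. Groups without overlap, in either direction, were seen in 20.5% of all genes tested against Ki67-negative and 20.3% against Ki67-positive nests. The share of genes lying below both untreated groups was not counted. Bid fell 0.450-fold against Ki67-negative (−1.15 on the log2 scale, SE 0.28, edgeR adjusted p = 0.00447) and 0.542-fold against Ki67-positive nests (−0.88, SE 0.28, adjusted p = 0.026). The call against Ki67-negative nests held with each of the 15 libraries left out. The call against Ki67-positive nests did not hold without vismodegib library 1 (adjusted p = 0.0528) or Ki67-positive library 1 (0.066) or 2 (0.0543). With Xist as a covariate the call against Ki67-positive nests was also lost (−0.83, adjusted p = 0.0535). Among libraries without Xist the values were −0.89 (adjusted p = 0.0829) and −0.77 (0.133). Caspase 8 itself (Casp8) averaged 58.5 CPM after vismodegib and 36.5 CPM in Ki67-negative nests and rose in that comparison (0.68, adjusted p = 0.0224), a call lost without vismodegib library 1 (0.0544). Against Ki67-positive nests, which averaged 44.3 CPM, Casp8 was not called (0.40, edgeR adjusted p = 0.182). Its vismodegib libraries (51.4 to 68.9 CPM) nonetheless all lay above its Ki67-positive libraries (37.9 to 50.8 CPM).

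Bbc3 encodes Puma, a BH3-only protein that binds all of the survival proteins and is a classical p53 target, and lies on chromosome 7 from 16308398 to 16318334 on the plus strand. It had 8.48, 7.75, 4.55, 3.28 and 5.63 CPM in vismodegib libraries 1 to 5, from 27 to 55 counts each. It had 9.68, 12.04, 16.6, 15.3 and 6.58 CPM in Ki67-negative and 10.8, 19.6, 10.6, 12 and 10.9 CPM in Ki67-positive libraries. All treated libraries lay below all Ki67-positive ones, while Ki67-negative library 5 fell inside the vismodegib range. Bbc3 fell 0.493-fold against Ki67-negative (−1.02 on the log2 scale, SE 0.32, edgeR adjusted p = 0.0193) and 0.463-fold against Ki67-positive nests (−1.11, SE 0.31, adjusted p = 0.0139). The first call did not hold without vismodegib library 3 (adjusted p = 0.0522) or Ki67-negative library 3 (0.0591), and the other without Ki67-positive library 2 (0.0535). With Xist as a covariate the call against Ki67-negative nests was also lost (−0.98, adjusted p = 0.055). Among libraries without Xist, Bbc3 was the 1 gene of the 10 still called, at −1.58 (adjusted p = 0.0175) and −1.56 (0.0188).

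The promoter regions of Bbc3 and Bcl2l11 are shown because both hold the core sequence of Foxo factors, GTAAACA on either strand, and both genes are known Foxo3 targets. Capitals mark that core and any GC box. The Bbc3 window at chr7:16310011-16310260 lies inside the gene's span, before an internal start and in no exon of GENCODE release M21, and is read on the plus strand. The Bcl2l11 window at chr2:128125788-128126037 lies before the outermost start, on the plus strand.
Bbc3 upstream: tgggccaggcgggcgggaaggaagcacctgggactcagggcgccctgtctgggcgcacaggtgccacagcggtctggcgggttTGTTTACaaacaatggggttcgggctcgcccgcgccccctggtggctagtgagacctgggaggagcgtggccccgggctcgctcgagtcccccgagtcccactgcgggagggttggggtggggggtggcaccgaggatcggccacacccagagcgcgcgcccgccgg
Bcl2l11 upstream: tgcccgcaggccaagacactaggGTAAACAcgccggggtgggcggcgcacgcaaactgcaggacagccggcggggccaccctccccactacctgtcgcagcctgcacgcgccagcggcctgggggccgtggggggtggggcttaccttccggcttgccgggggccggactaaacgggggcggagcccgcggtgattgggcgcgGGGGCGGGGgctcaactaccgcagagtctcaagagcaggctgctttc
Of the 9 genes with a window, these 2 held the Foxo core, which 4.05% of all genes with a window held. The GC box was in 6 of the 9 and in 12.9% of all such genes, and the E-box CACGTG in 2 of the 9 (Bax and Bbc3) and in 8.09%. The p53 decamer, searched by its consensus, was in windows of Bax and Bmf and in 9.55% of all such genes. A gene with more windows has more places for a match. By window, 2 of 16 held the Foxo core, beside 3.65% of all windows, and 6 of 16 the GC box, beside 11.45%. The E-box and the p53 decamer were each in 2 of 16, beside 7.15% and 8.36%. A match describes letters in a window and not a bound site. Foxo3 itself averaged 203 CPM after vismodegib, 199 CPM in Ki67-negative and 171 CPM in Ki67-positive nests and was not called (adjusted p = 0.938 and 0.361).

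Bcl2l11 encodes Bim, a BH3-only protein that growth factor signalling through ERK marks for destruction, and lies on chromosome 2 from 128126038 to 128162547. It had 36.5, 22.9, 27.8, 53.8 and 47.0 CPM in vismodegib libraries 1 to 5. It had 60.8, 71.1, 40.0, 51.9 and 50.1 CPM in Ki67-negative and 63.7, 35.4, 96.4, 67.8 and 49.6 CPM in Ki67-positive libraries. The 3 treated libraries with Xist were the lowest of the group and the 2 without it lay inside both untreated ranges. Bcl2l11 fell 0.601-fold against Ki67-positive nests (−0.73 on the log2 scale, SE 0.26, edgeR adjusted p = 0.0448) and was not called against Ki67-negative nests (−0.54, SE 0.26, adjusted p = 0.12). Between Ki67-negative and Ki67-positive nests it was at −0.19 (SE 0.26, adjusted p = 0.931), so the change after vismodegib is not shown to differ between the comparisons. The call against Ki67-positive nests did not hold without vismodegib library 1 (adjusted p = 0.0819), 2 (0.0982) or 3 (0.112), Ki67-positive library 1 (0.069), 3 (0.148) or 4 (0.0847), also without Ki67-negative library 1 (0.052), and with Xist as a covariate (0.0963). Among libraries without Xist it was at −0.14 against Ki67-negative (adjusted p = 0.801) and −0.38 against Ki67-positive nests (0.473). Bcl2l11 overlaps Acoxl, which averaged 5.77 CPM after vismodegib, 1.14 CPM in Ki67-negative and 2.46 CPM in Ki67-positive nests.

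Pmaip1 and Bmf, the remaining BH3-only genes, were not called. Pmaip1, which encodes the Mcl1 antagonist Noxa, held 6 to 77 counts per library and ranged from 1.39 to 8.14 CPM after vismodegib, from 0.898 to 10.2 CPM in Ki67-negative and from 4.18 to 11.1 CPM in Ki67-positive libraries. Its log2 fold changes were −0.01 against Ki67-negative (95% interval −1.09 to 1.08) and −0.60 against Ki67-positive nests (−1.68 to 0.48, adjusted p = 0.424), the widest intervals of the 10 genes. Bmf, whose protein is held at the cytoskeleton until cells lose attachment, ranged from 13.4 to 23.5 CPM after vismodegib, from 10.3 to 24.9 CPM in Ki67-negative and from 10.8 to 21.6 CPM in Ki67-positive libraries. Its groups overlapped throughout, with log2 fold changes of 0.06 and 0.30 (SE 0.26 each).

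**Figure D3:**
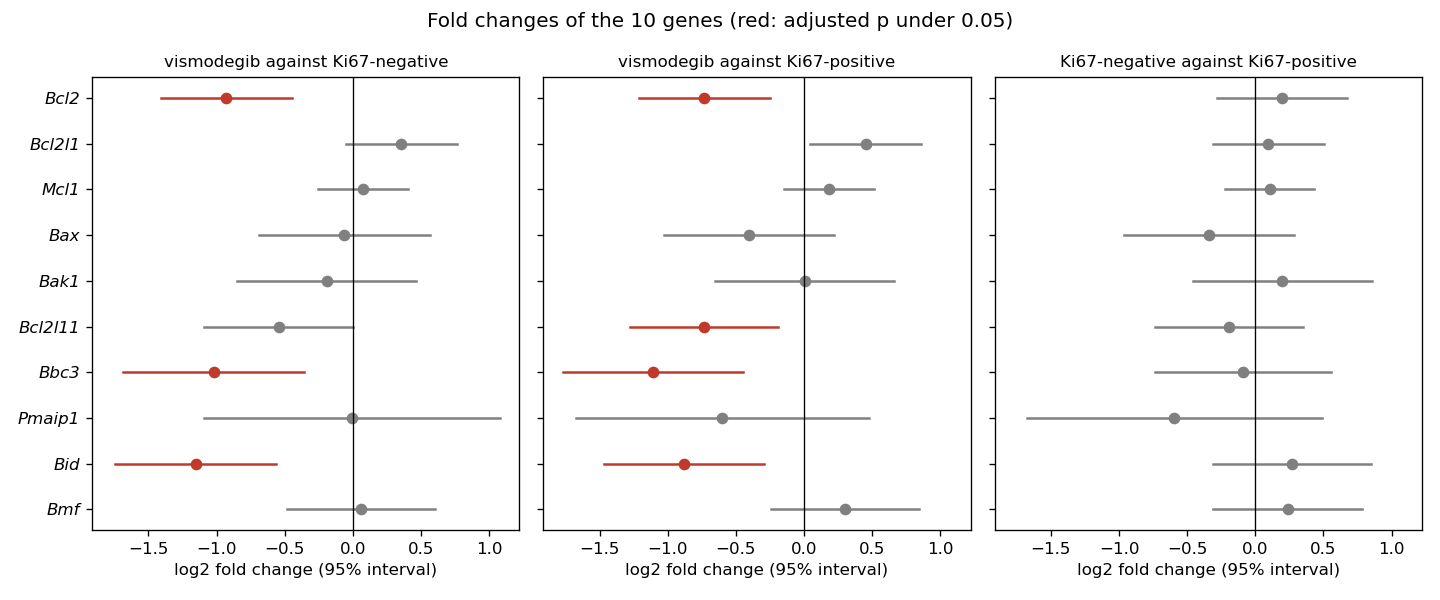
Log2 fold changes of the 10 genes with 95% intervals, for vismodegib against each untreated group and for Ki67-negative against Ki67-positive nests; red marks an adjusted p under 0.05. The 7 red points are all below 0 and belong to Bcl2, Bcl2l11, Bbc3 and Bid.

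Between the untreated groups, Ki67-negative and Ki67-positive nests, 0 of the 10 genes were called and 0 had an unadjusted p under 0.05 in edgeR. DESeq2 and limma voom called 0 as well. In that comparison 30 of 17282 genes were called (0.174%), all lower in Ki67-negative nests, and 1.17% were separated. Point estimates lay between −0.59 for Pmaip1 and 0.27 for Bid. The 95% interval of Mcl1 ran from −0.23 to 0.43, that of Bcl2 from −0.28 to 0.67 and that of Bid from −0.31 to 0.85. The missing calls do not show that these groups have equal levels.

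**Figure D4:**
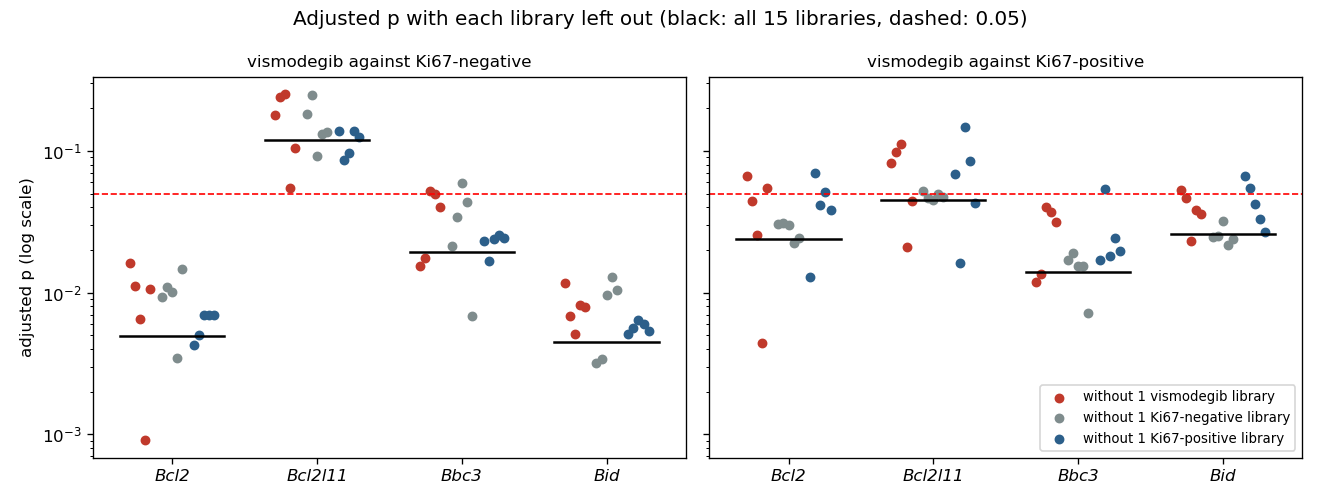
Adjusted p (log axis) of the 4 genes called in any comparison, in fits that each leave out 1 library, coloured by the group of the library left out; black lines are fits on all 15 libraries and the dashed line is 0.05. Bcl2 and Bid stay under the line in every fit against Ki67-negative nests, and Bcl2l11 crosses it in 7 of 15 fits against Ki67-positive nests.

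Within groups the 10 genes did not move as a block. Over the 15 libraries, with each group's mean removed from log2 CPM, the 45 pairs of genes had correlations between −0.75 (Bcl2l1 with Bak1) and 0.56 (Bcl2l11 with Bmf, and Bcl2l1 with Pmaip1), and 19 pairs were positive. These are descriptions across libraries that share depth and composition. The coefficient of variation within a group ran from 8.46% for Mcl1 after vismodegib to 74.3% for Pmaip1 in Ki67-negative nests. Mcl1 varied least of the 10 after vismodegib, Bcl2 in Ki67-negative nests (16.4%) and Bcl2l1 in Ki67-positive nests (10.5%).

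The genes nearest in profile over the 15 libraries were found by the root mean square difference of centred log2 CPM, for the 3 genes called against both untreated groups. For Bcl2 they were Ccdc173 (0.25 log2 units), Tshz2 (0.27), a zinc finger homeobox gene, and Ppp3cc (0.28), a catalytic subunit of calcineurin. For Bbc3 they were the small nucleolar RNA host gene Snhg17 (0.27), the phospholipase gene Plcd3 (0.28) and Palmd (0.30). For Bid they were Sfxn4 (0.26), a mitochondrial sideroflexin gene, the aggrecanase gene Adamts5 (0.32) and the ceramide synthase gene Cers2 (0.33). The closeness was taken from 13922 candidate genes and is a description.

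Ptch1, which is floxed here and also a Hedgehog target, averaged 551 ± 383 CPM after vismodegib, 3147 ± 682 CPM in Ki67-negative and 2973 ± 581 CPM in Ki67-positive nests (SD, n = 5 each). Of 7 Hedgehog targets tested, 4 fell and 1 rose against Ki67-negative nests, and 6 fell and 1 rose against Ki67-positive nests. Of 10 genes of the ERK response, 9 fell against Ki67-negative and 8 against Ki67-positive nests. Their part in the levels of the 10 family genes was not tested.

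Marker lists of other cell types differed after vismodegib, and their part in the results on these genes was not tested. Of 9 dendritic and Langerhans cell markers, 6 rose against Ki67-negative and 8 against Ki67-positive nests, and their summed level was 778 to 2446 CPM after vismodegib, 170 to 498 CPM in Ki67-negative and 127 to 534 CPM in Ki67-positive libraries. Of 8 T and NK cell markers tested, 4 and 6 rose, with sums of 116 to 184, 59.6 to 118 and 62.6 to 88.8 CPM in the same order of groups, and Ncr1 was at 0 in every Ki67-positive library. All 8 suprabasal epidermis markers rose in both comparisons, with sums of 3875 to 5303, 149 to 772 and 215 to 834 CPM. Melanocyte markers summed to 98.0 to 401, 181 to 1191 and 335 to 1521 CPM; 3 of 6 fell and 1 rose against Ki67-negative nests, and 4 fell against Ki67-positive nests. Of 8 fibroblast markers, 3 fell in each comparison (435 to 3641, 2605 to 4860 and 1737 to 6030 CPM), and of 7 pericyte and smooth muscle markers tested 5 fell in each (100 to 149, 653 to 981 and 565 to 921 CPM). Cspg4 led the pericyte and smooth muscle sum, averaging 66.7, 552 and 439 CPM, and Mcam averaged 12.2, 106 and 129 CPM. Rgs5 (7.60, 7.07 and 6.78 CPM), Myh11 (4.81, 4.73 and 4.09 CPM) and Des (3.19, 0.476 and 1.8 CPM) did not average lower after vismodegib. That sum therefore does not stand for every marker in its list. Of 8 myeloid markers 1 rose and 1 fell against Ki67-negative and 1 rose against Ki67-positive nests (100 to 336, 83.9 to 462 and 41.8 to 194 CPM). Of 5 endothelial markers tested none was called, and no B cell marker passed the filter, with Ms4a1 at 0 throughout. The nest epithelium list itself (9 markers) summed to 13580 to 17090, 6102 to 9907 and 8187 to 10120 CPM; 5 rose and 1 fell against Ki67-negative nests, and 5 rose and 2 fell against Ki67-positive nests.

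Around the family, 7 lists of 86 other apoptosis genes gave 77 tested genes. Of these, 13 rose and 9 fell against Ki67-negative nests (28.6%), and 9 rose and 8 fell against Ki67-positive nests (22.1%), close to the 31.9% and 26.0% of all genes. With each library left out in turn, the number called ranged from 17 to 24 and from 14 to 21. Calls that held in all 15 such fits numbered 15 of 22 and 10 of 17. Among libraries without Xist, 11 and 13 of these genes were called. Of the genes named below, those no longer called there against Ki67-negative nests were Dffa (adjusted p = 0.397), Casp8 (0.157), Bad (0.242), Birc6 (0.346), Naip2 (0.0674), Naip5 (0.092), Trim17 (0.135), Usp27x (0.213), Atf3 (0.0528) and Runx1 (0.628). Against Ki67-positive nests they were Dffa (adjusted p = 0.139), Casp14 (0.0566), Naip5 (0.0745) and Tnfsf10 (0.0953). With Xist as a covariate, Runx1 (0.0588) was lost against Ki67-negative nests, and Bcl2l12 (0.101) and Tnfsf10 (0.0503) against Ki67-positive nests.

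**Figure D5:**
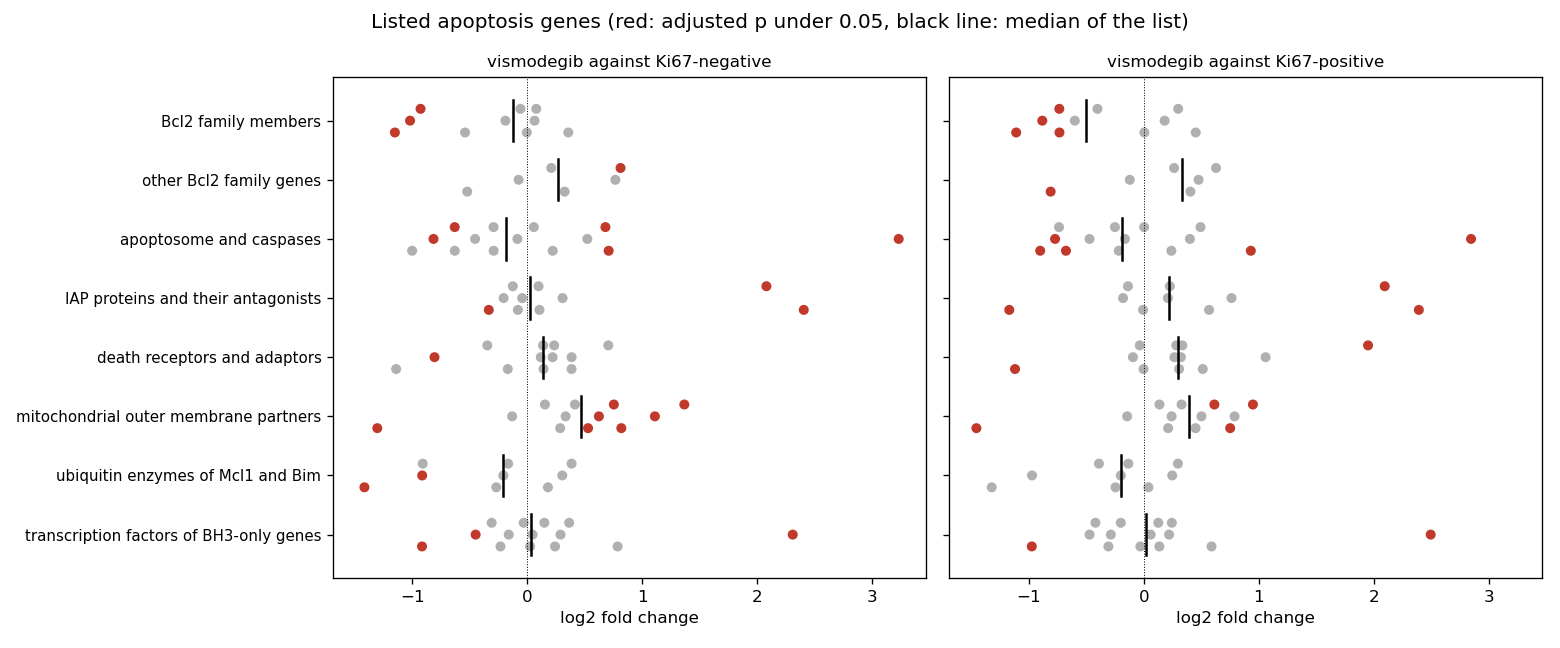
Log2 fold changes of the tested genes of each list, vismodegib against Ki67-negative (left) and Ki67-positive nests (right); red points have an adjusted p under 0.05 and black lines are list medians. The medians of all lists lie between −0.50 and 0.47, and the farthest point to the right is Casp14.

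Downstream of the mitochondrion, the apoptosome scaffold gene Apaf1 averaged 34.5 CPM after vismodegib, 60.7 CPM in Ki67-negative and 64.2 CPM in Ki67-positive nests. It fell in both comparisons with no overlap (−0.82 and −0.90 on the log2 scale, SE 0.19 each, adjusted p = 0.00357 and 0.00191), with each library left out as well. Dffa, which encodes the inhibitor of the caspase-activated DNase, rose in both (0.71 and 0.93, adjusted p = 0.0158 and 0.00298). Casp14, a caspase of cornifying keratinocytes rather than of apoptosis, averaged 278 CPM after vismodegib, 29.4 CPM in Ki67-negative and 38.7 CPM in Ki67-positive nests (3.23 and 2.85). In the list of apoptosome and caspase genes 3 of 14 rose and 2 fell against Ki67-negative nests, and 2 rose and 3 fell against Ki67-positive nests.

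Among partners at the outer membrane, 6 of 12 rose and 1 fell against Ki67-negative nests, and 3 rose and 1 fell against Ki67-positive nests. Bag1, a chaperone regulator named for binding Bcl2, averaged 134 CPM after vismodegib, 62.1 CPM in Ki67-negative and 69.3 CPM in Ki67-positive nests and rose in both (1.11 and 0.95, adjusted p = 0.000365 and 0.0015). Its relative Bag3, which handles damaged cytoskeletal proteins under stress, went the other way, at 58.2 CPM after vismodegib, 144 CPM in Ki67-negative and 160 CPM in Ki67-positive nests (−1.31 and −1.46, adjusted p = 0.000187 and 8.05e-05). Bag4 (0.53 and 0.75) rose in both comparisons with each library left out. The channel gene Vdac1 also rose in both (0.75 and 0.61, adjusted p = 0.00686 and 0.0258), the second call being lost without vismodegib library 3 or 5 or Ki67-positive library 2 or 3 (adjusted p up to 0.064). Vdac2, whose channel holds Bak in check, rose against Ki67-negative nests (0.82, adjusted p = 0.00285).

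Of 13 further Bcl2 family genes, 6 passed the filter. Bad, a BH3-only gene whose protein is silenced by phosphorylation, rose against Ki67-negative nests (0.81, adjusted p = 0.0186), with 17.0 CPM after vismodegib and 9.66 CPM in Ki67-negative nests, a call lost without vismodegib library 1 (0.0601) or 3 (0.0506). Against Ki67-positive nests it was at 0.63 (adjusted p = 0.0686). Bcl2l12 fell against Ki67-positive nests (−0.81, adjusted p = 0.0437), a call that 9 of the 15 fits with a library left out lost, at adjusted p up to 0.135. Bcl2l2, which encodes the survival protein Bcl-w, averaged 49.6 CPM after vismodegib, 52.3 CPM in Ki67-negative and 54.0 CPM in Ki67-positive nests (−0.08 and −0.12, SE 0.14 each). The Bcl2a1 copies, Bcl2l10, Bcl2l14, Bik and Hrk did not pass the filter. The Bcl2a1 copies are near-identical, so their counts of uniquely aligned reads are uncertain.

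Among inhibitors of apoptosis proteins, 2 of 10 rose and 1 fell in each comparison. Birc5, which encodes survivin and is also a mitotic gene, averaged 14.6 CPM after vismodegib, against 32.9 CPM in Ki67-positive nests, and fell (−1.17, adjusted p = 0.0142; 0.0568 without Ki67-positive library 5). In Ki67-negative nests it averaged 11.8 CPM, and the comparison of vismodegib with them gave 0.31 (adjusted p = 0.517). Naip2 and Naip5, sensors of bacterial proteins with near-identical copies, rose in both comparisons at low levels. Naip2 averaged 3.77 CPM after vismodegib, 0.886 CPM in Ki67-negative and 0.725 CPM in Ki67-positive nests (2.08 and 2.39), and Naip5 averaged 3.71, 0.697 and 0.891 CPM in the same order (2.40 and 2.10). Naip5 was not called against Ki67-positive nests without vismodegib library 1 (adjusted p = 0.0515) or Ki67-positive library 4 (0.0503). Birc6, a giant ubiquitin-conjugating inhibitor, fell against Ki67-negative nests (−0.34, adjusted p = 0.0204; 0.0526 without vismodegib library 1). Xiap, the direct caspase inhibitor, was at 0.10 and 0.23 (adjusted p = 0.564 and 0.208).

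Of 12 tested genes of death receptors, their ligands and adaptors, 0 rose and 1 fell against Ki67-negative nests. Against Ki67-positive nests 1 rose, a ligand gene, and 1 fell. Tnfrsf10b, the mouse receptor for the ligand TRAIL and a p53 target, averaged 7.43 CPM after vismodegib, 13.01 CPM in Ki67-negative and 16.1 CPM in Ki67-positive nests. It fell in both (−0.81 and −1.12, adjusted p = 0.0196 and 0.0027), the first call being lost without vismodegib library 5 (0.0502) or Ki67-negative library 3 (0.0524). Tnfsf10, the gene of TRAIL, rose against Ki67-positive nests (1.95, adjusted p = 0.0442), a call that 9 of the 15 fits with a library left out lost, at adjusted p up to 0.103.

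Transcription factors that drive BH3-only genes mostly did not pass the test. Of 14, 1 rose and 2 fell against Ki67-negative nests, and 1 rose and 1 fell against Ki67-positive nests. Jun fell in both (−0.92 and −0.97, adjusted p = 0.000656 and 0.000424), with 57.3 CPM after vismodegib, 108 CPM in Ki67-negative and 113 CPM in Ki67-positive nests. Atf3, a stress factor, rose in both (2.31 and 2.50, adjusted p = 0.0294 and 0.0238). Its calls were lost without vismodegib library 4 (0.142 and 0.115), against Ki67-negative nests also without Ki67-negative library 1, 2, 3 or 5, and against Ki67-positive nests also without Ki67-positive library 4 or 5 (0.0522 and 0.0561). Runx1 fell against Ki67-negative nests (−0.45, adjusted p = 0.035), a call that 6 of the 15 fits with a library left out lost, at adjusted p up to 0.0901. Trp53 averaged 111 ± 23.5 CPM after vismodegib, 131 ± 17.6 CPM in Ki67-negative and 149 ± 24.1 CPM in Ki67-positive nests and was not called (−0.23 and −0.42, adjusted p = 0.271 and 0.0573). Counts per gene cannot show whether the floxed exons were present, so its level checks no label. Ubiquitin enzymes of Mcl1 and Bim gave 2 falls of 9 against Ki67-negative nests, Trim17 (−1.42, adjusted p = 0.00804) and Usp27x (−0.92, adjusted p = 0.00938), and no call against Ki67-positive nests.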

How the data were processed

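RNA-seq counts of 15 libraries were analysed. The deposited counts are reads aligned uniquely to each gene model, and the authors' RPKM values are adjusted by a library size factor, per the file headers. GSNAP and build GRCm38 are named in the submitters' processing notes; their versions, the annotation and any use of strand were not stated in those notes. NCBI gene identifiers were matched to RefSeq symbols (31049 of 36528), and unmatched ones held 2.26 to 3.93% of counts. No library repeated another of its group, the smallest chi-square over its degrees of freedom between a pair being 13.2.

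Genes were filtered with filterByExpr (minimum count 10, minimum total 15) and scaled by TMM. Tests used edgeR 4.0.16 (quasi-likelihood, robust, two-sided) in R 4.3.3, over all 15 libraries with no covariate and 12 residual degrees of freedom, with Benjamini-Hochberg adjustment over all genes tested. A standard error is the log2 fold change divided by the square root of F, and 95% intervals use it with the fit's degrees of freedom. Alternatives used DESeq2 1.42.0, limma 3.58.1 (voom), RLE size factors, no filter, a minimum count of 50, 2 groups only, an Xist covariate, raw library sizes and each library left out. A fit on libraries without Xist was chosen after seeing the data. The procedure was tested on simulated data. Genes named are the 10 members, up to 4 called genes per list with the smallest adjusted p, the 3 nearest profiles (pseudocount 0.5 CPM), and Ptch1, Trp53 and Mki67. Foxo3, Xiap, Bcl2l2, Krt14, Krt5 and genes overlapping a member are named outside that rule, with their values seen. The members and lists were chosen with earlier results of these data known. Promoter sequences are from RefSeq (GRCm38.p6). Counts limit the precision of low genes, and intervals cover the spread between libraries only.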

Additional observations from a re-analysis of the deposited data

Results flagged for a closer look

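Within a group of 5 libraries, a value is listed here where the gap from the highest or lowest library to its nearest neighbour, divided by the group's range, exceeded 0.71. Of 30 groups examined, 10 genes in 3 groups, 2 passed this limit, and chance gives about 1 in 20. Bax was 24.2 CPM in Ki67-negative library 2, against 10 CPM in the next highest library of that group. Bbc3 was 19.6 CPM in Ki67-positive library 2, against 12 CPM in the next highest. Without Ki67-positive library 2, Bbc3 had a log2 fold change of −0.90 in vismodegib against Ki67-positive nests (edgeR adjusted p = 0.0535).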

How the results depend on the processing

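The number called among the 10 genes depended on single libraries more against Ki67-positive than Ki67-negative nests: leaving out each library gave 1 to 4 and 2 to 3 called genes, and 0 to 0 between untreated groups. Bbc3 went the other way, called in 13 of 15 such fits against Ki67-negative and 14 of 15 against Ki67-positive nests. All genes called then ranged from 3767 to 5219 against Ki67-positive nests, from 4614 to 5771 against Ki67-negative nests and from 0 to 43 between untreated groups. With Xist as a covariate, 2 of the 10 were called against Ki67-positive nests (Bcl2 and Bbc3, with Bid and Bcl2l11 lost), and Bbc3 missed against Ki67-negative nests (adjusted p = 0.055). In libraries without Xist, a choice made after seeing the data that leaves 2 treated libraries, 1 of the 10 was called in each comparison with vismodegib, of 2815 genes against Ki67-positive and 3024 against Ki67-negative nests, and 0 genes between untreated groups; fewer samples enter by construction. Between untreated groups DESeq2 called 88 genes, voom 15 and a fit of 2 groups 0, where the cause was not tested. Bcl2l11 missed against Ki67-positive nests with no filter (adjusted p = 0.0533) or 2 groups only (0.0632).

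Sign changes touched only uncalled values, and their cause was not tested. Against Ki67-positive nests, Bak1 was −0.12 with voom, −0.00358 with a stricter filter, −0.12 with the Xist covariate and −0.35 without Xist libraries. Against Ki67-negative nests, Pmaip1 was 0.00388 with RLE size factors, 0.0036 with DESeq2, 0.22 with voom, 0.0035 with no filter, 0.0068 with 2 groups, 0.43 with the Xist covariate and 0.11 without Xist libraries, and Bax was 0.014 with voom and 0.092 with the covariate. Between untreated groups without Xist libraries, Mcl1 was −0.0115, Bak1 −0.12 and Bbc3 0.018. With a library left out, values ranged from −0.17 to 0.19 for Bak1 against Ki67-positive nests. Against Ki67-negative nests they ranged from −0.030 to 0.21 for Mcl1, −0.17 to 0.34 for Bax, −0.37 to 0.0016 for Bak1, −0.27 to 0.45 for Pmaip1 and −0.075 to 0.23 for Bmf. Between untreated groups they ranged from −0.025 to 0.22 for Mcl1, −0.34 to 0.017 for Bcl2l11 and −0.23 to 0.12 for Bbc3. Counts in the gene lists stayed within 1.5 times in 1216 checks and moved further in 95. These checks include the comparison between untreated groups, where no listed gene was called on all 15 libraries. Equal counts of 0 there were taken as unmoved, so the 1216 overstate how steady the comparisons with vismodegib were. No paired analysis was possible because the labels give no replicate numbers. Pmaip1, with 6 to 77 counts a library, had the widest intervals.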
